A study of Mus musculus with 9 samples.

Results

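The genes described here are 9 markers of the oligodendrocyte lineage, measured in astrocyte cultures in which that lineage is a minor cell type: Mbp, Mog, Mag, Mobp, Cnp, Sox10, Olig1, Olig2 and Pdgfra. They were taken by gene symbol, and all 9 were present among the 18061 genes of the deposited expression table. The list was chosen with earlier results of these data known. RNA-seq was run on 9 libraries of cortical astrocytes from wild-type C57BL/6 mouse pups at postnatal day 1, grown in medium with horse and fetal bovine serum, with 3 libraries in each of 3 groups. Cultures given Aβ plus acetate were exposed to amyloid-β at 1 µM from day 8 in vitro for 5 days, and on the last day they were in glucose-free medium with 10 mM sodium acetate. The acetate group had 10 mM sodium acetate in glucose-free medium for the last day. The control group had glucose-free medium for the last day, so glucose withdrawal was common to all 3 groups, and a group with Aβ alone was not analysed here. The comparison of Aβ plus acetate with acetate therefore bears on Aβ in the presence of acetate, and the comparison of acetate with control bears on acetate during glucose withdrawal.

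Oligodendrocytes wrap axons in myelin, and they arise from progenitor cells that carry the PDGF receptor α and respond to PDGF-A, a mitogen that astrocytes can secrete. The basic helix-loop-helix factors Olig1 and Olig2 and the SRY-related factor Sox10 set up the lineage, and Olig2 is also made by some astrocytes and their precursors. As progenitors differentiate they lose Pdgfra and turn on the structural genes of myelin, among them Mbp, Mobp, Mag and Mog. Progenitors commonly remain in primary astrocyte cultures from newborn cortex, alongside microglia and cells of the meninges and vessels. In bulk RNA, fewer cells of a type and less RNA per cell cannot be told apart.

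The libraries fell into 2 sets, which are told from the style of the library names in the labels and which the labels do not explain. Library set 2 held Aβ plus acetate replicates 2 and 3, acetate replicates 2 and 3 and control replicate 3, and library set 1 held Aβ plus acetate 1, acetate 1 and controls 1 and 2. The first principal component of the 14058 genes with at least 1 CPM in at least 3 libraries held 89.75% of the variance. Spearman's correlation between libraries was 0.9921 to 0.9972 within a set and 0.9048 to 0.9346 across sets. Ddit3, a stress-induced transcription factor, averaged 685 ± 33.3 CPM in set 2 and 16.0 ± 2.36 CPM in set 1 (SD, n = 5 and 4). Gfap, the astrocyte intermediate filament, averaged 5633 ± 736 CPM in set 2 and 4116 ± 562 CPM in set 1, so the labelled cell type was met by its defining marker in both sets. The depth implied by the low CPM values was 22.16 M to 57.03 M reads per library. Because each group had libraries in both sets in unequal numbers, treatment differences were estimated with the library set as a term, and the values within the sets are given beside them.

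Of the 9 markers, 7 passed the filter of at least 1 CPM in at least 3 libraries and were tested, and Mog and Mag did not pass. Of these, Mobp passed the filter only through set 2, so its difference between the sets is given as a description. Of the other 6, limma called 5 between the library sets at an adjusted p under 0.05, 2 higher and 3 lower in set 2. Of all 14058 genes tested, 70.6% were called in that comparison, 38.4% higher and 32.3% lower. The share of all genes whose sets did not overlap was not counted, so a lack of overlap is given below as a description of each marker. With a replicate block by title number added, 33.8% of genes were called, and Mbp, Olig1 and Olig2 were the ones called among those 6. Mbp and the receptor gene Pdgfra were higher in set 2, the transcription factors Olig1, Olig2 and Sox10 were lower, and Cnp did not pass. In the 3 treatment comparisons none of the 7 passed, and 0% of all genes were called.

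**Figure D1:**
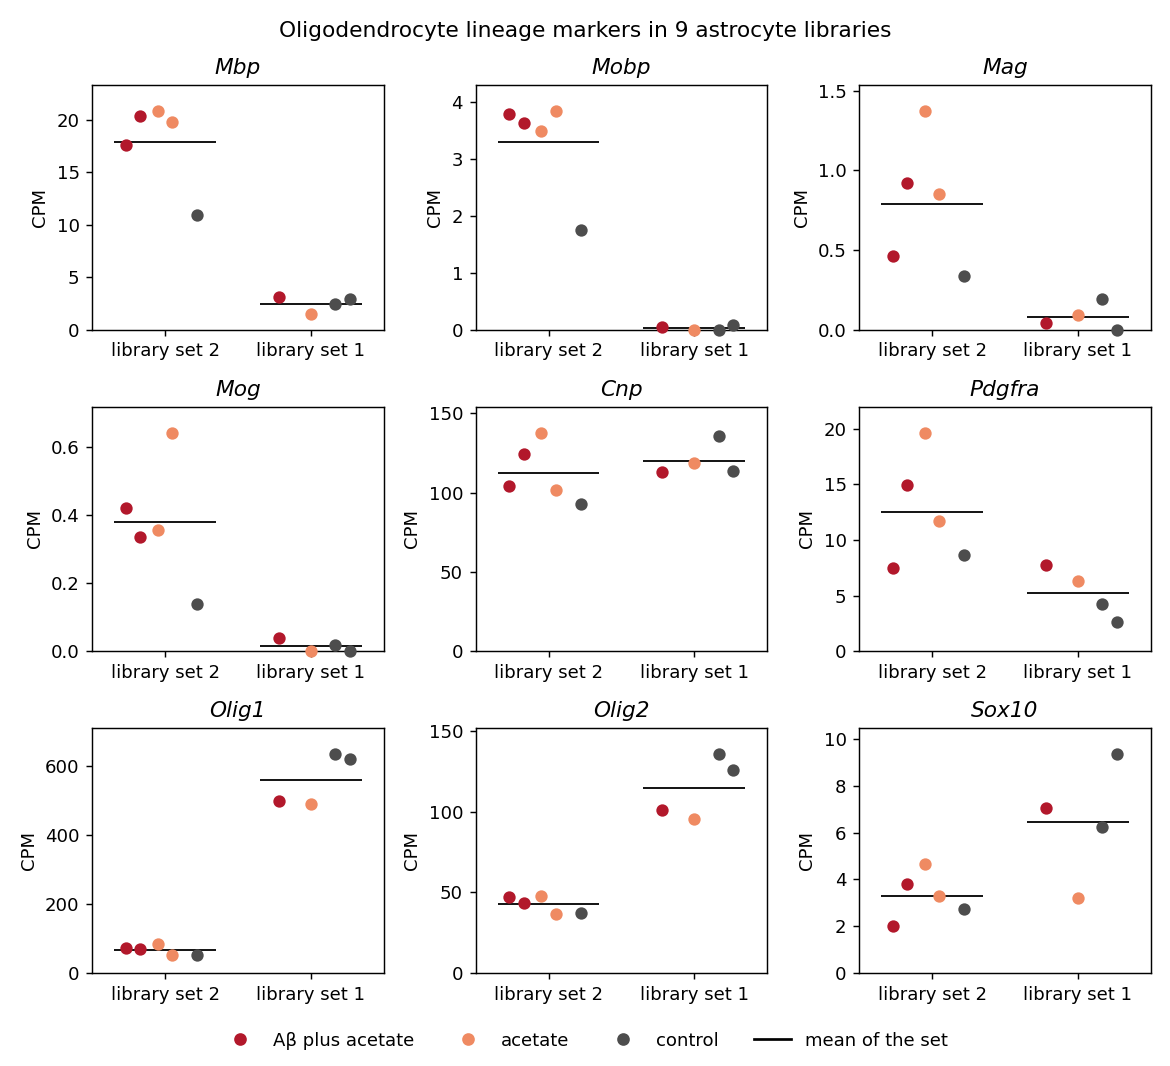
Deposited CPM of each of the 9 markers (one panel per gene, linear vertical axis from 0) in the libraries of set 2 and set 1, with colour for the treatment group and a line at the mean of each set. Mbp, Mobp, Mag and Mog stood higher in every set 2 library, Olig1 and Olig2 stood higher in every set 1 library, and Cnp, Sox10 and Pdgfra overlapped between sets. The share of all genes whose sets do not overlap was not counted, and 70.6% of tested genes were called between the sets.

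Mbp encodes myelin basic protein, which compacts the cytoplasmic faces of the myelin membrane. Its deposited span was chromosome 18, 82475123 to 82585638 on the plus strand of mm10, which includes the upstream start of the Golli transcripts, and the gene-level values do not separate these from the myelin transcripts. In set 2, Mbp stood at 17.6 and 20.4 CPM in Aβ plus acetate 2 and 3, at 20.8 and 19.8 CPM in acetate 2 and 3, and at 10.98 CPM in control 3. In set 1 it stood at 3.10 CPM in Aβ plus acetate 1, at 1.54 CPM in acetate 1, and at 2.42 and 2.89 CPM in controls 1 and 2. The sets did not overlap, and control 3 was the lowest library of set 2. The set means were 17.9 ± 4.07 and 2.49 ± 0.694 CPM (SD, n = 5 and 4), a 7.20-fold difference in CPM. On the log2(CPM + 1) scale the difference was 2.36 (SE 0.19, limma adjusted p = 7.27e-07), and the pseudocount lowers such values for genes of low CPM.

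Mobp, a small basic protein of compact myelin, spanned chromosome 9, 120149742 to 120181487 on the plus strand. It stood at 3.79 and 3.62 CPM in Aβ plus acetate 2 and 3, 3.48 and 3.84 CPM in acetate 2 and 3, and 1.74 CPM in control 3. The set 1 values were 0.0408 CPM in Aβ plus acetate 1, 0 CPM in acetate 1, 0 CPM in control 1 and 0.0903 CPM in control 2. These values correspond to about 730 reads over the set 2 libraries and 3 reads over the set 1 libraries, so in set 1 Mobp was at the limit of detection, where a count of 0 in acetate 1 allows up to 0.0904 CPM. The log2(CPM + 1) difference was 1.93 (SE 0.15), with no test given since the 5 libraries that took Mobp past the filter were those of set 2. Within set 2 the 4 libraries with acetate lay between 3.48 and 3.84 CPM, and control 3 lay below them all.

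Mag and Mog encode myelin-associated glycoprotein, at the face of the sheath next to the axon, and myelin oligodendrocyte glycoprotein, on its outer surface. Mag (chromosome 7, 30899175 to 30914923, minus strand) stood at 0.466 and 0.919 CPM in Aβ plus acetate 2 and 3, 1.37 and 0.850 CPM in acetate 2 and 3, and 0.338 CPM in control 3. In set 1 it was at 0.0408 CPM in Aβ plus acetate 1, 0.0904 CPM in acetate 1, 0.193 CPM in control 1 and 0 CPM in control 2. Mog (chromosome 17, 37010740 to 37023399, minus strand) ranged over 0.141 to 0.643 CPM in set 2 and 0 to 0.0408 CPM in set 1, about 84 reads against 2 reads in all. Both genes thus stood higher in every set 2 library, at no more than 1.37 CPM in any library, and control 3 was again the lowest of set 2. With no filter on low values, the log2(CPM + 1) difference between sets was 0.64 for Mag and 0.39 for Mog. No test is given, since both genes failed the filter and had about 15 and 2 reads over the set 1 libraries.

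Cnp encodes a phosphodiesterase of non-compact myelin that oligodendrocytes make in quantity from an early stage. It lies at chromosome 11, 100574939 to 100581740, plus strand. In set 2 it stood at 104 and 124 CPM in Aβ plus acetate 2 and 3, 138 and 102 CPM in acetate 2 and 3, and 92.8 CPM in control 3. Among set 1 libraries Cnp stood at 113 CPM in Aβ plus acetate 1, 119 CPM in acetate 1, and 135 and 114 CPM in controls 1 and 2. The sets overlapped, with means of 112 ± 18.4 and 120 ± 10.5 CPM. The log2 difference was -0.14 (95% interval -0.39 to 0.12, limma adjusted p = 0.311), which leaves out a difference of the size seen for Mbp.

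The promoters of the myelin genes are shown because Mobp, Mag and Mog stood higher in every set 2 library, while Sox10, a known activator of myelin genes, did not share it. RefSeq promoter sequences on GRCm38.p6 were matched for 6 of the 9 genes, with 3 alternative starts for Mag, while Mbp, Sox10 and Olig1 are named only. Each window is the 250 bases before the transcription start, written in the direction of the gene. Capitals mark 4 words that SOX factors bind, on either strand. The first word searched was ACAAAG and the next word searched was ACAATG, while the third word searched was TCAAAG and the last word searched was TCAATG.
Mobp, chr9:120149492-120149741, plus strand: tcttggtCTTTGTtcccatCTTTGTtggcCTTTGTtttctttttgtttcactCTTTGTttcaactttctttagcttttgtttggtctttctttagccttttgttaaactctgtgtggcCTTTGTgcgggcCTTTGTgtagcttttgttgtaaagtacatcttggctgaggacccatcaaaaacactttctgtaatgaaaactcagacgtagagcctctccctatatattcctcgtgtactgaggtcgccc
Mag, chr7:30914923-30915172, minus strand: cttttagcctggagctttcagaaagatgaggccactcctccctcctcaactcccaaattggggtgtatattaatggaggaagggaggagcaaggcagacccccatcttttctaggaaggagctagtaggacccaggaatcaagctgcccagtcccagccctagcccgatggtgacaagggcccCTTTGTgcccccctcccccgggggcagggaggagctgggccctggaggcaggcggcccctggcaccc
Mog, chr17:37023399-37023648, minus strand: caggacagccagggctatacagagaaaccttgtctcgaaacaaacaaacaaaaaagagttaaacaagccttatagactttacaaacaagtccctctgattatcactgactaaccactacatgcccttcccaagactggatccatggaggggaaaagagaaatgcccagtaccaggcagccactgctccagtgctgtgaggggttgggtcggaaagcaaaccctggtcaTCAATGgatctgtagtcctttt
Olig2, chr16:91225300-91225549, plus strand: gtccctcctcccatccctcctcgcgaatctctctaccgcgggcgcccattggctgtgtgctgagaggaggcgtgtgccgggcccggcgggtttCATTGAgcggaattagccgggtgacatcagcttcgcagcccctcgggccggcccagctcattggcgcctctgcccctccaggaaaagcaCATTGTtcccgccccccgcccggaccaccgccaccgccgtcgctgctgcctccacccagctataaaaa
The Mobp window held 6 such matches, all reading CTTTGT, while the Olig2 and Cnp windows held 2, each Mag and Mog window held 1, and the Pdgfra window held 0. Among 32851 promoter windows of this length, 39.4% held at least 1 match, 10.8% at least 2, and 0.0213% at least 6. The E-box letters CANNTG, bound by helix-loop-helix factors, were in 0 of the 4 printed windows, so the marked letters overlap no E-box there. The windows not printed held 1 and 2 such matches for the other Mag starts, 1 for Cnp and 1 for Pdgfra. Of all windows, 66.2% held an E-box. Mobp, Mag and Mog, with 6, 1 and 1 matches, stood higher in set 2, as did Pdgfra with 0. Olig2 with 2 matches was lower in set 2, and Cnp with 2 did not pass. Whether the matches bear on these differences was not tested. A match describes the letters of the window only.

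Olig1 and Olig2 are neighbours on chromosome 16, at 91269769 to 91271940 and at 91225550 to 91228678 on the plus strand, with 41.09 kb between them. Olig1 stood at 73.5 and 68.8 CPM in Aβ plus acetate 2 and 3, 84.1 and 51.9 CPM in acetate 2 and 3, and 52.5 CPM in control 3. In set 1 it stood at 500.02 CPM in Aβ plus acetate 1, 491 CPM in acetate 1, and 634 and 619 CPM in controls 1 and 2. Every set 1 library was far above every set 2 library. The means were 66.2 ± 13.9 CPM in set 2 and 561 ± 75.9 CPM in set 1, 8.48-fold higher in set 1. The log2 difference of set 2 minus set 1 was -3.07 (SE 0.15, limma adjusted p = 1.55e-08).

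Olig2, which specifies the lineage, moved in the same direction by less. It stood at 47.4 and 43.4 CPM in Aβ plus acetate 2 and 3, 48.0 and 36.8 CPM in acetate 2 and 3, and 37.0 CPM in control 3, against 101 CPM in Aβ plus acetate 1, 95.5 CPM in acetate 1, and 135 and 125 CPM in controls 1 and 2. The sets did not overlap, and the log2 difference was -1.36 (SE 0.12, limma adjusted p = 1.63e-06). The ratio of Olig1 to Olig2 within a library, which needs no scaling between libraries, was 1.41 to 1.75 in set 2 and 4.68 to 5.15 in set 1. The pair therefore did not change in proportion. Olig1 overlaps the noncoding gene Gm15966 on the opposite strand, and no source used here says that reads were counted by strand, so reads of the pair cannot be told apart.

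Sox10 is required for oligodendrocyte differentiation and is also a gene of Schwann cells and other neural crest derivatives (chromosome 15, 79154913 to 79164491, minus strand). It stood at 2.02 and 3.81 CPM in Aβ plus acetate 2 and 3, 4.65 and 3.31 CPM in acetate 2 and 3, and 2.73 CPM in control 3. The set 1 libraries had 7.06 CPM in Aβ plus acetate 1, 3.22 CPM in acetate 1, and 6.24 and 9.34 CPM in controls 1 and 2. Acetate 1 lay inside the range of set 2, so the sets overlapped. The log2 difference was -0.69 (SE 0.26, 95% interval -1.25 to -0.13, limma adjusted p = 0.0301). The call was lost without control 2 (-0.57, limma adjusted p = 0.0626), without control 3 (-0.43, limma adjusted p = 0.216), without Aβ plus acetate 1 (-0.50, limma adjusted p = 0.190) and without Aβ plus acetate 2 (-0.56, limma adjusted p = 0.0571). Of 10 Schwann cell markers 7 were tested, of which 2 were higher and 4 lower in set 2 (3 lower without Foxd3, which passed the filter only through set 1), with a median of -0.91 against 0.05 over all genes. Of all tested genes, 38.4% were called higher and 32.3% lower. The summed level of the Schwann cell markers was 138 to 168 CPM in set 2 and 293 to 352 CPM in set 1. Pmp22 alone made up most of each sum, at 102 to 128 CPM in set 2 and 258 to 279 CPM in set 1. The sums thus mainly describe that gene. The part of such cells in the Sox10 difference was not tested.

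**Figure D2:**
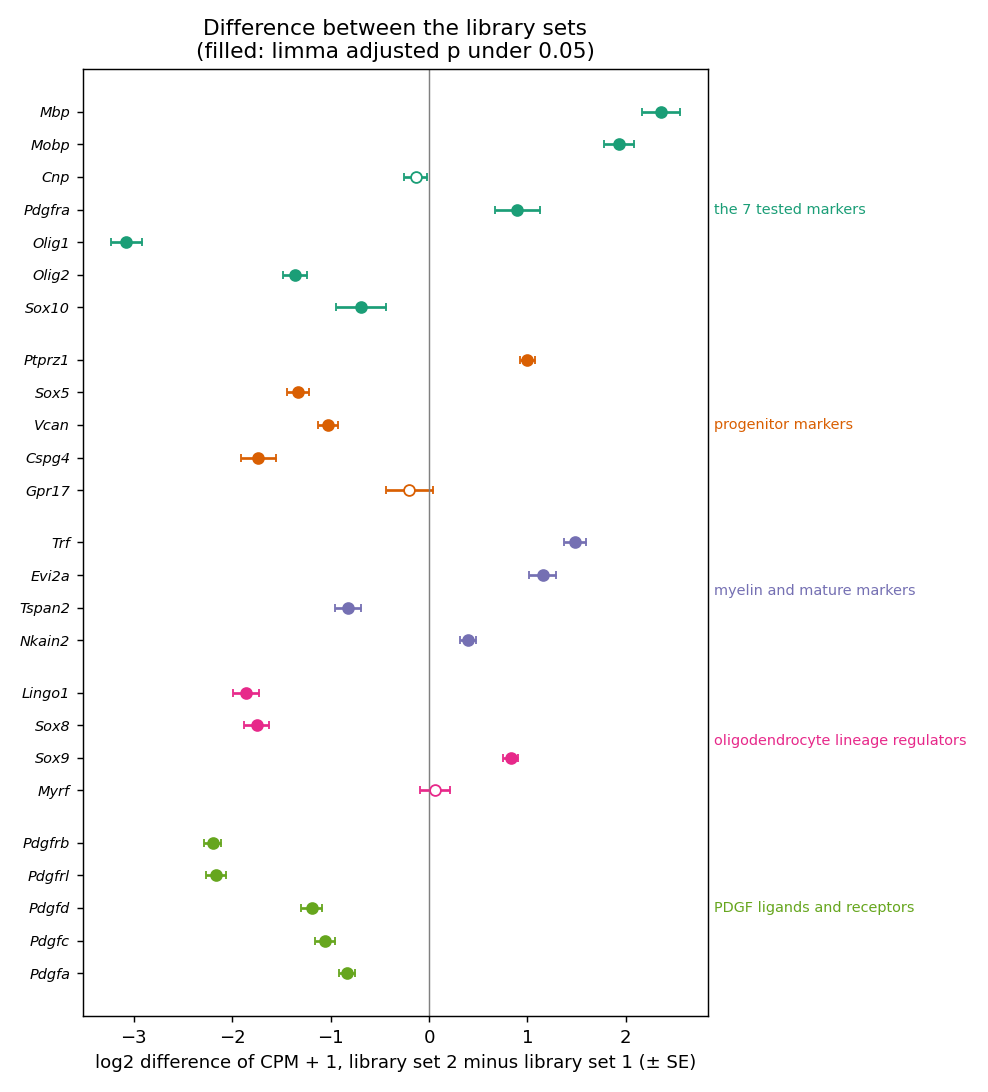
Differences in log2(CPM + 1) between library set 2 and library set 1 for the 7 tested markers and for named progenitor, myelin, regulator and PDGF genes, from the limma fit with treatment group as a term, with bars of 1 SE. Filled points passed an adjusted p of 0.05, Mobp passed the low-value filter only through set 2, the markers run from -3.07 for Olig1 to 2.36 for Mbp, and Cnp lies near 0.

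Pdgfra encodes the receptor that keeps progenitors dividing, and fibroblasts also make it (chromosome 5, 75152251 to 75198207, plus strand). It stood at 7.50 and 15.0 CPM in Aβ plus acetate 2 and 3, 19.6 and 11.7 CPM in acetate 2 and 3, and 8.67 CPM in control 3. In set 1 it stood at 7.79 CPM in Aβ plus acetate 1, 6.36 CPM in acetate 1, and 4.24 and 2.66 CPM in controls 1 and 2. The sets overlapped through the Aβ plus acetate libraries, and the means were 12.5 ± 4.94 CPM in set 2 and 5.26 ± 2.27 CPM in set 1. The log2 difference was 0.90 (SE 0.23, limma adjusted p = 0.00441), and the call was lost with a replicate block by title number (log2 1.27, limma adjusted p = 0.0757). Pdgfra overlaps the antisense gene Gm42802, with the same limit on strand as for Olig1.

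The 6 other PDGF ligand and receptor genes were all lower in set 2, the opposite direction to Pdgfra, with a median log2 difference of -1.12. Among all tested genes 32.3% were called lower. Pdgfa, the ligand that acts on progenitors, averaged 32.2 CPM in set 2 and 56.7 CPM in set 1, a log2 difference of -0.83 (limma adjusted p = 4.03e-06). Pdgfrb, the receptor of pericytes and fibroblasts, averaged 49.95 CPM in set 2 and 228 CPM in set 1 (log2 -2.20, limma adjusted p = 2.39e-09). The ligand genes Pdgfb, Pdgfc and Pdgfd and the receptor-like gene Pdgfrl were lower by -0.85, -1.06, -1.19 and -2.16 on the log2 scale. Fibroblast and meningeal markers, of which 16 of 17 tested were lower in set 2 (13 without genes that passed the filter only through set 1) and 0 higher, summed to 1055 to 1350 CPM in set 2 and 2919 to 3151 CPM in set 1. Fn1, counted among them, made up most of each set 2 sum, at 875 to 1146 CPM, against 1303 to 1498.5 CPM in set 1. Pdgfra was thus higher in the set in which the fibroblast and meningeal markers were lower.

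Other genes of the lineage were counted from lists of markers that do not include the 9. Of 14 progenitor markers tested, 3 were higher and 6 lower in set 2, with a median log2 difference of -0.31. Over all tested genes, 38.4% were called higher and 32.3% lower. Ptprz1, a receptor phosphatase that astrocytes also make, averaged 1246 CPM in set 2 and 627 CPM in set 1 (log2 1.00, limma adjusted p = 4.60e-07), and Lhfpl3 and Sox6 were the others that were higher. Susd5, among the lower ones, passed the filter only through set 1. Cspg4, which encodes the NG2 proteoglycan of progenitors and pericytes, averaged 16.1 CPM in set 2 and 56.3 CPM in set 1 (log2 -1.73, limma adjusted p = 4.52e-06). Sox5 and Vcan were lower by -1.33 and -1.03. Gpr17, a receptor of progenitors that are committed to differentiate, did not pass at 1.38 CPM in set 2 and 1.69 CPM in set 1 (limma adjusted p = 0.470). Pdgfra and Cspg4, 2 usual surface markers of the same progenitor cell, therefore differed in opposite directions.

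Of 17 tested markers of myelin and mature oligodendrocytes, 5 were higher, 3 lower and 9 did not pass, with a median of 0.03. Among all tested genes the share called was 70.6%, with 38.4% higher and 32.3% lower. Trf, transferrin, averaged 55.6 CPM in set 2 and 21.0 CPM in set 1 (log2 1.48, limma adjusted p = 2.94e-07), and Evi2a averaged 5.50 CPM and 2.19 CPM in the same sets (log2 1.16, limma adjusted p = 1.46e-05). Nkain2, Car2 and Cldn11, which forms the tight junctions of myelin, were the others counted as higher. The tetraspanin gene Tspan2 averaged 20.3 CPM in set 2 and 37.0 CPM in set 1 (log2 -0.83, limma adjusted p = 0.000162), and Gal3st1, the sulfatide enzyme, and Omg were also counted as lower. Cldn11 passed the filter only through set 2 and Omg only through set 1, and without such genes the list had 4 higher and 2 lower. Most genes of the myelin list were therefore not called higher in set 2.

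Of 14 tested regulators of the lineage, 3 were higher and 7 lower, with a median of -0.30. The share called over all tested genes was 70.6%. Sox8, a relative of Sox10 that can act with it, averaged 22.8 CPM in set 2 and 80.7 CPM in set 1 (log2 -1.75, limma adjusted p = 2.58e-07), and Lingo1, an inhibitor of differentiation, was lower by -1.86. Sox9, which astrocytes make throughout, averaged 685.0 CPM in set 2 and 372 CPM in set 1 (log2 0.83, limma adjusted p = 1.29e-06), and Nkx2-2 and Nkx6-2 were the others that were higher. Myrf, the factor that turns on the myelin genes in mature cells, did not pass at 1.41 CPM in set 2 and 1.16 CPM in set 1 (limma adjusted p = 0.717).

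Per kilobase of annotated exon, the order of the markers also differed between sets. In set 2 the median levels were 31.8 CPM per kb for Olig1, 28.6 for Cnp, 17.2 for Olig2, 2.34 for Mbp, 1.17 for Pdgfra, 1.08 for Sox10, 0.529 for Mobp and 0.209 for both Mog and Mag. Olig1 and Cnp overlapped there, as did Mbp, Pdgfra and Sox10 with each other, and Mobp, Mog and Mag with each other, so the order within each of these groups is not beyond the spread. In set 1 the medians were 259 CPM per kb for Olig1, 44.7 for Olig2, 32.0 for Cnp, 2.18 for Sox10, 0.529 for Pdgfra and 0.313 for Mbp, with Mag, Mog and Mobp at no more than 0.0474 in any library. Pdgfra and Mbp overlapped in set 1, and Olig2 (37.7 to 53.5) lay just above Cnp (31.0 to 37.2). Mbp ranked the fourth in set 2 and the sixth in set 1, while Olig1 ranked first in both.

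Within-library ratios do not depend on the scaling of libraries. The pairs below were chosen among the markers, so the ratios describe the differences given above again and are not further evidence of them. The ratio of Mbp to Olig1 CPM had a median of 0.248 (0.209 to 0.382) in set 2 and 0.00424 (0.00313 to 0.00620) in set 1. The ratio of Mbp to Cnp was 0.118 to 0.195 in set 2 and 0.0129 to 0.0275 in set 1. The ratio of Mobp to Mbp was 0.159 to 0.216 in set 2 and 0 to 0.0313 in set 1, so the 2 myelin genes differed by unequal factors. The set 1 values of that ratio rest on about 3 Mobp reads in all. No library of one set reached the range of the other in any of these ratios, and the share of other gene pairs with such a gap was not counted.

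**Figure D3:**
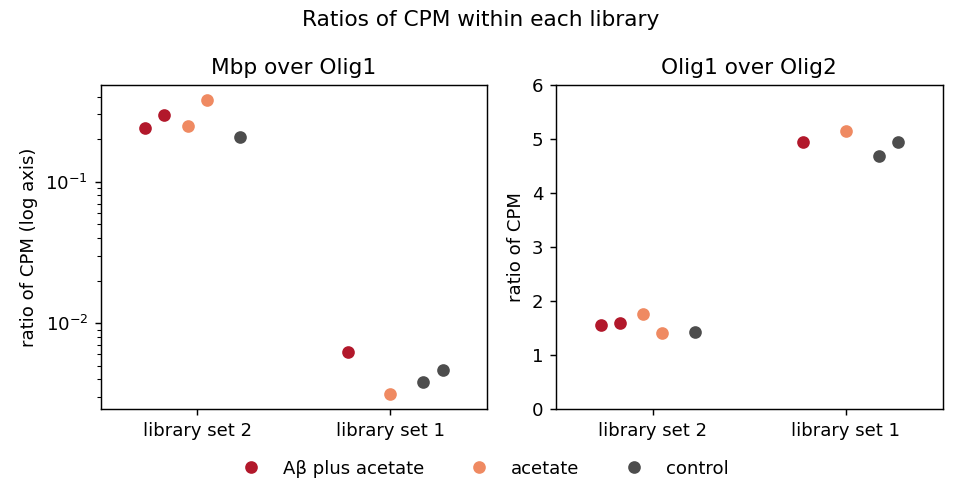
Ratio of Mbp to Olig1 CPM (log axis) and of Olig1 to Olig2 CPM (linear axis from 0) within each of the 9 libraries, by library set and coloured by treatment group. The Mbp to Olig1 ratio is at least 0.209 in set 2 and at most 0.00620 in set 1, and the Olig1 to Olig2 ratio is at most 1.75 in set 2 and at least 4.68 in set 1.

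Markers of other cell types moved between the sets too, and their part in the differences of the 9 genes was not tested. The counts below stand beside 38.4% of all tested genes called higher and 32.3% called lower. All 8 tested mural cell markers were lower in set 2, with sums of 556 to 787 CPM in set 2 and 2993 to 3745 CPM in set 1. Of 13 tested microglia markers, 12 were higher and 1, Tmem119, lower in set 2, with sums of 449 to 687 CPM in set 2 and 181 to 309 CPM in set 1. Astrocyte markers went both ways, 5 higher and 6 lower of 11 tested, as did neuron markers with 4 higher and 2 lower of 8, and endothelial markers with 2 higher and 1 lower of 4. Of 6 ependymal markers 5 were higher and 0 lower. In each of the mural, microglia, neuron and ependymal counts, 1 called gene had passed the filter only through 1 set. The summed CPM of the 9 oligodendrocyte lineage markers was 207 to 320 in set 2 and 717 to 918 in set 1, and Olig1 alone made up most of the set 1 sum.

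**Figure D4:**
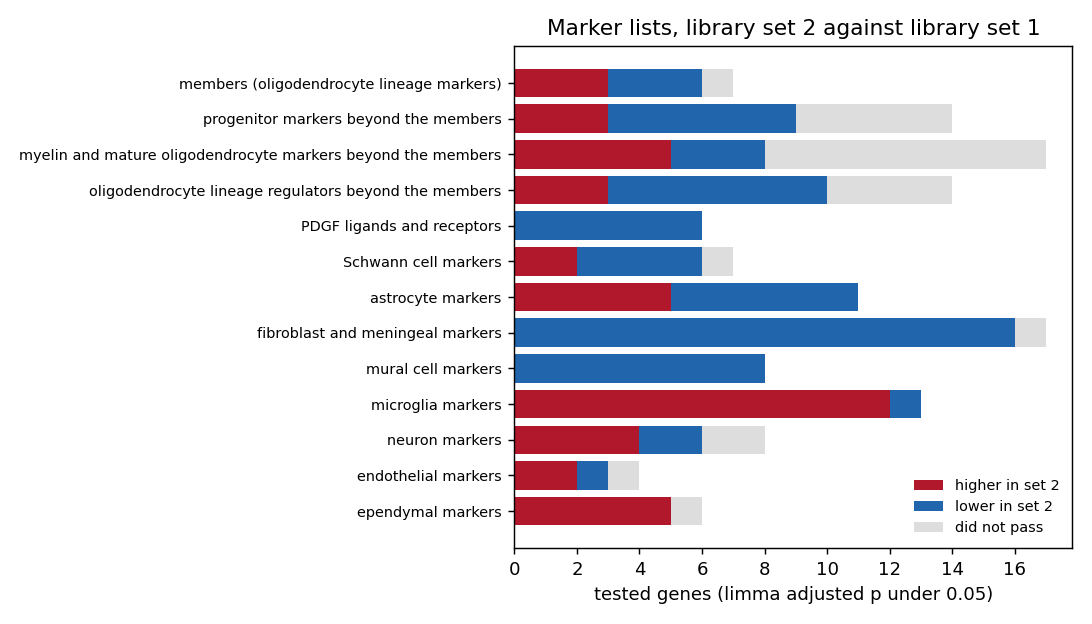
Number of tested genes of each marker list that limma called higher in library set 2, lower in library set 2, or not called at an adjusted p of 0.05. Genes that passed the low-value filter only through 1 set, Mobp among them, are counted. Over all tested genes, 38.4% were called higher and 32.3% lower. The 7 tested oligodendrocyte lineage markers divide 3 higher, 3 lower and 1 not called, while the mural list is lower for 8 of 8 and the microglia list higher for 12 of 13.

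Neither addition of Aβ to acetate nor acetate itself gave a call for any of the 7 tested markers, nor for any other gene, in the limma fit with library set as a term. In each of the 3 comparisons 0 of 14058 genes passed, and 436 genes for Aβ plus acetate against acetate, 453 for acetate against control and 505 for Aβ plus acetate against control had an unadjusted p under 0.05. Among the 7 markers, 1 had an unadjusted p under 0.05, Pdgfra in acetate against control. The comparisons share libraries, since the acetate and control groups each enter more than one.

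Between Aβ plus acetate and acetate, the log2 differences of the markers lay between -0.23 for Pdgfra and 0.16 for Mbp. The 95% intervals, unadjusted, were -0.32 to 0.65 for Mbp, -0.32 to 0.47 for Olig1, -0.21 to 0.41 for Olig2 and -0.81 to 0.35 for Pdgfra. The limma adjusted p was 0.999856 for each. Within the sets the signs differed for 3 markers: the difference was -0.10 in set 2 and 0.69 in set 1 for Mbp, -0.37 in set 2 and 0.93 in set 1 for Sox10, and -0.47 in set 2 and 0.26 in set 1 for Pdgfra. The set 1 values compare 1 library with 1. The test of the difference between sets gave -0.79 for Mbp (unadjusted p = 0.0112, limma adjusted p = 0.884) and -1.30 for Sox10 (unadjusted p = 0.0148, limma adjusted p = 0.999873). For the others the values were 0.02 in set 2 and 0.06 in set 1 for Mobp, -0.06 and -0.07 in the same sets for Cnp, 0.10 and 0.02 for Olig1, and 0.11 and 0.08 for Olig2. Mbp averaged 13.7 ± 9.26 CPM in Aβ plus acetate and 14.1 ± 10.9 CPM in acetate (SD, n = 3 each), with the low value of each group in set 1. Olig1 averaged 214 ± 248 CPM in Aβ plus acetate and 209 ± 245 CPM in acetate, and Cnp averaged 114 ± 10.2 and 119.5 ± 17.97 CPM in the same groups. No interval reached the size of the differences of Mbp or Olig1 between the sets.

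Pdgfra was the marker with the largest estimated difference under acetate. It averaged 12.6 ± 6.69 CPM in acetate and 5.19 ± 3.11 CPM in control (SD, n = 3 each), and its log2 difference was 0.83 (SE 0.28, 95% interval 0.22 to 1.43, unadjusted p = 0.0118, limma adjusted p = 0.999995). Within the sets, acetate 1 lay above both controls of set 1, and acetate 2 and 3 lay above control 3. Set 1 thus rests on the single library acetate 1, and set 2 on the single library control 3. How many of all genes have that order was not counted. The log2 difference of Pdgfra was 0.74 in set 2 and 0.75 in set 1. In Aβ plus acetate Pdgfra averaged 10.1 ± 4.24 CPM, and its log2 difference from control was 0.60 (95% interval -0.01 to 1.20, unadjusted p = 0.0531, limma adjusted p = 0.998636), with 0.27 in set 2 and 1.00 in set 1. The difference failed the correction over all genes. Of the fibroblast and meningeal markers 14 of 17 lay above 0 in acetate against control, 0 passed, and their median was 0.14 against -0.02 over all genes. Col1a2, a collagen gene of fibroblasts, had a log2 difference of 0.50 (unadjusted p = 0.00332, limma adjusted p = 0.999995), and Col1a1 had 0.58. The fibroblast and meningeal markers summed to 1144 and 1278 CPM in acetate 2 and 3 and 1055 CPM in control 3 of set 2. In set 1 the sums were 3046 CPM in acetate 1 and 3089 and 2919 CPM in controls 1 and 2. Fn1 made up most of the set 2 sums, at 875 and 1074 CPM in acetate 2 and 3 and 890 CPM in control 3. The set 2 sums thus mainly describe that gene. The part of such cells in the Pdgfra difference was not tested.

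For the other markers the acetate difference was 0.17 for Mbp, 0.31 for Mobp, 0.12 for Cnp, -0.25 for Sox10, -0.06 for Olig1 and -0.17 for Olig2 on the log2 scale, none past the threshold. Against control, Aβ plus acetate gave 0.33 for Mbp, 0.34 for Mobp, 0.05 for Cnp, -0.19 for Sox10, 0.02 for Olig1 and -0.07 for Olig2. Within the sets these were 0.73 in set 2 and 0.17 in set 1 for Mbp, 0.78 and -0.0047 in the same sets for Mobp, 0.29 and -0.14 for Cnp, 0.03 and -0.10 for Sox10, 0.43 and -0.33 for Olig1, and 0.29 and -0.37 for Olig2. None of the other lineage lists had a gene that passed in any treatment comparison. Among the progenitor, myelin and regulator lists, the smallest unadjusted p belonged to Car2 for Aβ plus acetate against acetate (log2 0.27), to Trf for acetate against control (log2 -0.39) and to Nfasc for Aβ plus acetate against control (log2 0.33). Bcas1, a gene of newly formed oligodendrocytes, followed in the last of these (log2 0.90), all with a limma adjusted p of at least 0.998636.

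**Figure D5:**
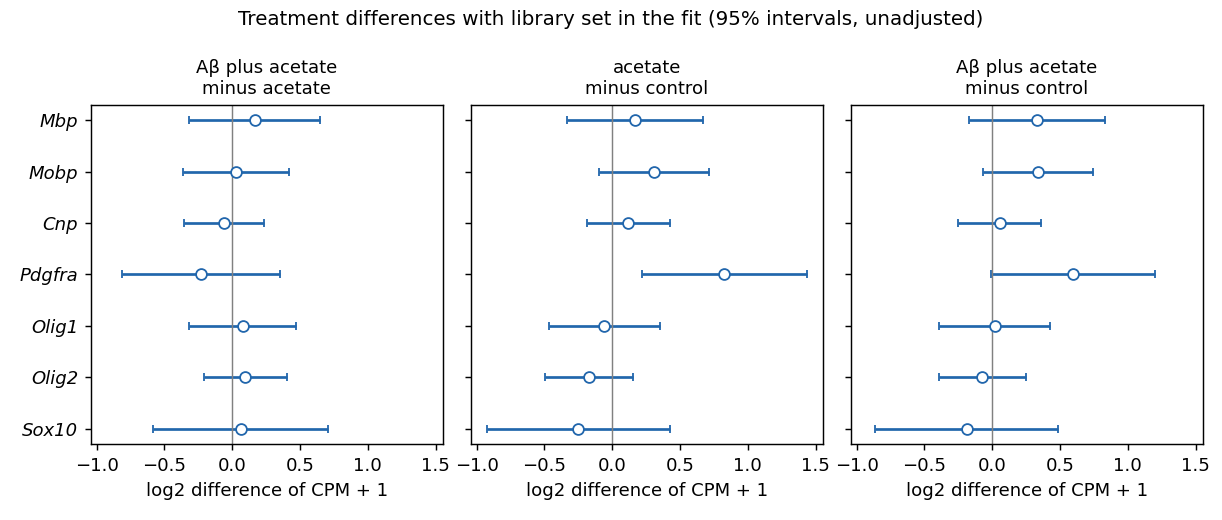
Differences in log2(CPM + 1) of the 7 tested markers in the 3 treatment comparisons, with unadjusted 95% intervals from the limma fit with library set as a term. Every interval crosses 0 except that of Pdgfra in acetate against control (0.22 to 1.43), and no gene passed an adjusted p of 0.05.

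The acetate difference of several markers had opposite signs in the 2 sets. For Mbp it was 0.83 in set 2 and -0.52 in set 1 on the log2 scale, and in the fit with separate effects per set these differed by 1.36 (SE 0.25, limma adjusted p = 0.235). For Sox10 it was 0.40 in set 2 and -1.03 in set 1, a difference of 1.44 (limma adjusted p = 0.459). It was 0.76 in set 2 and -0.06 in set 1 for Mobp, 0.35 and -0.06 in the same sets for Cnp, 0.33 and -0.35 for Olig1, and 0.18 and -0.45 for Olig2. Mobp, Olig2 and Olig1 had differences between sets of 0.82, 0.62 and 0.68 (limma adjusted p = 0.495, 0.570 and 0.701). None of the 7 passed, nor did any of the 14058 genes, while 4 of the 7 and 7.23% of all genes (1016) had an unadjusted p under 0.05. In set 2 each of these values is read against the single library control 3, and in set 1 each is read from the single library acetate 1, so no set holds replicates of both groups. Control 3 was the lowest library of set 2 for Mbp, Mobp, Mag, Mog and Cnp.

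Across the 9 libraries the markers followed the split of the sets, so the correlations below describe that split and have no p. Pearson's r of log2(CPM + 1) was 0.989 between Mbp and Mobp, 0.991 between Olig1 and Olig2, and -0.942 between Mbp and Olig1. It was 0.780 between Pdgfra and Mbp, and 0.748 between Sox10 and Olig2. Among all tested genes, those most like Mbp over the 9 libraries were Tmem74b (r = 0.997) and Sptlc2 (0.994), and those most like Mobp were Zbtb2 (0.996) and Cystm1 (0.995). Those most like Olig1 were Lrrn2 and Megf6 (0.999 each), and those most like Olig2 were Klhdc8a and Uhrf1 (0.997 each). Sox10 was closest to Gas7 (0.964), Pdgfra to Hlf (0.962) and Cnp to Nme4 (0.951). After the mean of each set was subtracted, the closest genes were Limd1 for Mbp (0.987), Zfp786 for Mobp (0.980), Card19 for Cnp (0.987), Mrc1 for Sox10 (0.956), Pxk for Olig1 (0.979), Poldip3 for Olig2 (0.978) and Ppp1r42 for Pdgfra (0.977). Hlf was also the next closest to Pdgfra on that measure (0.940).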

How the data were processed

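Gene-level CPM, reads scaled to the library total, were deposited by the authors for 9 poly-A RNA-seq libraries, and the submitters' processing notes name STAR 2.7.3a and Partek and list both mm10 and GRCm39. The deposited positions matched mm10, where 17612 of 17644 symbols (99.82%) overlapped the gene of that name, and 11500 of 17902 starts equalled those of RefSeq GRCm38.p6. Implied reads were whole within 0.1 for 92.22 to 93.26% of low values per library, so a count model was not used. No mitochondrial gene is listed. Floors of 3 reads cover counting error only.

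Values were tested as log2(CPM + 1) with limma 3.58.1 in R 4.3.3, with group and library set as terms, a trended robust prior and Benjamini-Hochberg adjustment over 14058 genes with at least 1 CPM in at least 3 of 9 libraries. The effect difference between sets came from a fit with a mean for each group and set, which has 3 residual degrees of freedom. The labels call the samples biological replicates and do not say which animals or cultures they came from, so p-values measure the spread between these samples. Numbers in the library names paired the libraries by set (r 0.761 to 0.947 in 7 of 7 pairs, and -0.499 to -0.105 once the set was removed), while title numbers did not (r above 0.1 in 7 of 9 pairs). The alternatives were other pseudocounts, filters, scalings, variance models and blocks, and each library left out.

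The genes, lists and the library set term were chosen with earlier results of these data known. The text names all 9 markers, and of each other list the genes of smallest p by a fixed rule (4 for the set comparison and 2 for each treatment comparison), some genes of known role, and the 2 genes most like each marker. Genes named beside a count of 5 or fewer, and the Schwann cell markers given by library, were chosen after their values were seen. Some genes that this rule names are not reported here.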

Additional observations from a re-analysis of the deposited data

Results flagged for a closer look

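Mobp in control 3 stood at 1.74 CPM, apart from the 4 other libraries of set 2, which lay between 3.48 and 3.84 CPM. Its gap to the nearest of them was 0.831 of the range of the set, above the 95% critical value of Dixon's test for 5 samples. Of 18 groups of values tested (9 markers in 2 sets) this was the 1 past its critical value, and chance gives about 1 in 20. Control 3 is the only control in set 2.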

How the results depend on the processing

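The differences between library sets of Mbp (2.00 to 2.74), Olig1 (-3.21 to -2.84) and Olig2 (-1.48 to -1.15) kept their direction and call under every alternative run. Mobp gave 1.68 to 4.58, and requiring 1 CPM in all 9 libraries left it out. Pdgfra (0.77 to 1.27) lost its call under the replicate block by title number (limma adjusted p = 0.0757), as did Sox10 (-1.31, limma adjusted p = 0.0819), and that block lowered the genes called between sets to 4746 from 9929 and gave Cnp 0.045. Leaving out 1 library gave -1.15 to -0.43 for Sox10 and -0.21 to 0.0039 for Cnp. Treatment comparisons had 0 calls under every alternative, so their signs carry no call. Some signs turned. With array quality weights, Mbp was -0.078 for acetate against control and Olig1 was -0.039 for Aβ plus acetate against control. With no library set, Olig1 was -1.01 for Aβ plus acetate against control. The replicate block by library-name number gave Olig1 0.088 for acetate against control and Olig2 0.052 for Aβ plus acetate against control. The replicate block by title number gave Cnp -0.0058, Sox10 0.018 and Olig1 -0.047 for Aβ plus acetate against control. Leaving out 1 library gave, for Aβ plus acetate against acetate, Mbp -0.19 to 0.31, Mobp -0.11 to 0.15, Cnp -0.16 to 0.079, Sox10 -0.40 to 0.33, Olig1 -0.074 to 0.30, Olig2 -0.0021 to 0.24 and Pdgfra -0.48 to 0.11. For acetate against control it gave Mbp -0.26 to 0.64, Mobp -0.048 to 0.50, Cnp -0.069 to 0.22, Sox10 -0.60 to 0.36 and Olig1 -0.38 to 0.075. For Aβ plus acetate against control it gave Mbp -0.095 to 0.47, Mobp -0.019 to 0.50, Cnp -0.13 to 0.15, Sox10 -0.54 to 0.023, Olig1 -0.30 to 0.20 and Olig2 -0.36 to 0.078. Genes whose treatment effect differed between sets numbered 4 with array quality weights and 0 to 3 with 1 library left out (Aβ plus acetate against acetate), and 2 with those weights and 0 to 1 with 1 library left out (acetate against control). The calls came without Aβ plus acetate 3, and in the second comparison also without Aβ plus acetate 2. The cause of these changes was not tested. Leaving out control 3, acetate 1 or Aβ plus acetate 1 left some of these differences with no estimate, and they were not fitted with a replicate block. Fewer than 3 reads per library limit Mobp and Mog in set 1.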

Other observations

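Within set 1, several markers of Schwann cells and their neural crest precursors were highest in control 2, the library in which Sox10 was also highest. Ngfr stood at 16.1 CPM in Aβ plus acetate 1, 9.61 CPM in acetate 1 and 15.1 and 32.9 CPM in controls 1 and 2. Erbb3, a neuregulin receptor of Schwann cells, stood at 4.57 CPM in Aβ plus acetate 1, 2.38 CPM in acetate 1 and 3.63 and 8.03 CPM in controls 1 and 2. Foxd3, a neural crest factor, stood at 1.22, 0.422, 1.67 and 3.29 CPM in the same order of libraries. Acetate 1 was the lowest of set 1 in Sox10 and in these 3 genes. These genes were chosen after their values were seen, and no test was made.

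The markers Bcas1 and Enpp6 of newly formed oligodendrocytes did not follow that order. Bcas1 stood at 2.98 CPM in Aβ plus acetate 1, 0.301 CPM in acetate 1, 0.421 CPM in control 1 and 0 CPM in control 2. Enpp6 stood at 0.816 CPM in Aβ plus acetate 1 and at 0.105 to 0.151 CPM in the other 3 libraries of set 1. It failed the low-value filter. Gpr17 and Neu4 of the progenitor list were lowest of set 1 in acetate 1, as Sox10 was, at 0.814 CPM and 0 CPM. Both were highest of set 1 in Aβ plus acetate 1, at 2.65 CPM and 0.204 CPM, and Neu4 also failed the filter. The genes of this paragraph were likewise chosen after their values were seen, and no test was made.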
